A study of Mus musculus with 2 samples.

Results

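The genes described here are 36 genes of ribosome biogenesis and cell growth, chosen by symbol from the 32285 genes that the count tables list. Their transcripts were counted in spleen natural killer (NK) cells that had been isolated by flow cytometry from mice under dietary restriction (DR) and from control mice on normal feeding. The cells were read with 10x Genomics 3' single-cell RNA sequencing, in 1 DR library and 1 control library. The labels used here give neither the age, sex, strain and number of the mice, nor the extent and length of the restriction, nor whether animals were pooled. With 1 library a group there is no replicate and no test between DR and control. Differences are therefore given as ratios on the log2 scale with 95% intervals in brackets that cover counting error only and say nothing of the variation between mice.

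Ribosomes are built in the nucleolus, where RNA polymerase I transcribes the ribosomal RNA precursor, small nucleolar ribonucleoproteins (snoRNPs) guide its modification, and assembly factors shape the small and large subunits. The transcription factor MYC is known to raise many genes of this pathway together with polyamine and nucleotide enzymes when lymphocytes are activated and grow. In NK cells such growth is known to follow stimulation by cytokines or activating receptors. The 36 genes were described in 6 role groups. The 9 growth and polyamine genes were Myc, Odc1, Srm, Nme1, Ppa1, Apex1, Ppp1r14b, C1qbp and Mettl1. The 5 nucleolar genes were Ncl, Npm1, Nolc1, Gnl3 and Pa2g4. The 6 snoRNP genes were Fbl, Nop56, Nop58, Dkc1, Nhp2 and Gar1. The 5 genes of RNA polymerase I and the small subunit were Polr1b, Rrp9, Rrp12, Wdr43 and Ddx21. The 9 genes of large subunit assembly were Pes1, Bop1, Wdr12, Rrs1, Mrto4, Nop2, Nop16, Noc2l and Gpatch4, and the 2 translation factors were Eif4a1 and Eif5a.

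All 36 genes were found in the GENCODE annotation of GRCm38, where they lie on 16 chromosomes. Myc lies at chr15:61985391-61990374 on the plus strand and Odc1 at chr12:17544794-17551505 on the plus strand. Of the 36 genes, 8 (22.2%) enclose an annotated small nucleolar or small Cajal body RNA on their own strand, against 279 of 22028 protein-coding genes (1.27%). Nop56 encloses 5 of them, Nop58 4, Ncl, Gnl3, Wdr43 and Eif4a1 3 each, and Odc1 and Dkc1 1 each. No member is overlapped on its strand by another counted gene. Mrto4 is the one member with pseudogenes that carry its symbol, to which its reads could be assigned. Pseudogenes under other names were not searched for any member.

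The E-box CACGTG, a palindrome that MYC and other factors of its class are known to bind, was looked for in RefSeq promoter windows of GRCm38.p6, which run from 250 bases before to 50 bases after a gene start. A window was at hand for 28 members. CACGTG lay in a window of 9 of these (32.1%): Apex1, Eif4a1, Eif5a, Mettl1, Nme1, Nop2, Pes1, Ppa1 and Wdr43. Among other protein-coding genes it lay in 1507 of 16494 (9.14%). Counted by window it was found in 12 of 37 member windows (32.4%), against 1606 of 20113 other windows (7.98%). The GC box GGGCGG, searched on both strands, lay in windows of 21 of the 28 members (75%) and of 8409 of 16494 other genes (51.0%). A match of letters describes the window and shows no binding. The 4 stretches below are from Apex1 and Ppa1, which had some of the largest differences between cell classes, and from Nop2 and Eif4a1. Capitals mark CACGTG, each stretch reads 5' to 3' on the strand of its gene, and the number after the coordinates is the position of the first capital relative to the gene start.
Apex1, chr14:50924885-50924948, plus strand, -24: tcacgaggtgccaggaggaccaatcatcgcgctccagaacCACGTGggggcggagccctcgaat
Ppa1, chr10:61648441-61648526, plus strand, -140: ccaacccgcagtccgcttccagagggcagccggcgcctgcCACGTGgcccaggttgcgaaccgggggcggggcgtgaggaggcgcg
Nop2, chr6:125131783-125131868, plus strand, -60: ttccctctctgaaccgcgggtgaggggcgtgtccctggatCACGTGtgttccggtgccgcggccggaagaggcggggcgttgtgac
Eif4a1, chr11:69672567-69672652, minus strand, -189: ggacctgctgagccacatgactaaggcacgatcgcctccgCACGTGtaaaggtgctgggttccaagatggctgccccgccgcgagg

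The DR library held 42134212 UMIs (unique molecular identifiers, each counting 1 captured transcript) in 6287 barcodes, and the control library 44526828 in 5702 barcodes. After filtering, 5758 DR and 5244 control cells were kept, and 13 barcodes were shared by the libraries. Cells were put into classes from clusters made without the 36 genes. NK-like cells were 77.5% of the DR and 89.5% of the control cells, with all 14 listed NK markers at 20 CPM (counts per 1000000 UMIs) or more in both. Their median depths were 5474.5 and 7150 UMIs. The kept cells also held B-like cells (456 in the DR library and 125 in the control library), T-like cells (304 and 4) and ILC1-like cells, a related innate lymphocyte (375 and 277). B cell markers summed to 877 CPM in DR and 151 CPM in control NK-like cells, and to 251 and 132 CPM without the cycling cells described below. Levels are UMIs summed over the cells of a class in each library, as CPM. Because 3' counts differ in capture between genes, levels are compared between cells and not between genes. A gene is called higher when it is at least 25% above and lower when it is at least 20% below the cells it is set against, with an interval that leaves out equality, and contrasts between classes need this in both libraries. Calls were made over 5860 genes whose level in NK-like cells, averaged over the libraries, was 20 CPM or above, which 27 of the 36 members reached. Srm, Apex1, Mettl1, Polr1b, Rrp12, Wdr12, Nop2, Nop16 and Gpatch4 lay below that level and are given by their values, uncalled.

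Over all NK-like cells together, the 36 genes took up much the same share of UMIs in both libraries. Their sum was 3442 CPM (3420 to 3463) in DR and 3426 CPM (3408 to 3445) in control NK-like cells. Per cell, the median share was 0.288% of UMIs in DR cells and 0.278% in control cells. The make-up of the NK-like cells differed. Cells with a Tnfrsf9 UMI outside the cycling gate, described below, were 20.3% of them in DR and 28.3% in control. Among NK-like cells neither cycling nor Tnfrsf9-positive, the sum was 3018 CPM (2994 to 3042) in DR and 2862 CPM (2840 to 2884) in control. Within either library the sum differed far more between classes of cells than between the libraries. Of the 4 gates by Cd27 and Itgam (CD11b), the sum was lowest in NK-like cells with UMIs of Itgam and none of Cd27, at 2801 CPM in DR and 2709 CPM in control. Of the 13 NK-like clusters, it was highest in a small one led by Spp1 and Tnfrsf9, at 8048 CPM (7801 to 8301) in 52 DR cells and 7009 CPM (6876 to 7144) in 151 control cells. B-like cells stood at 4820 and 4840 CPM, and ILC1-like cells at 3924 and 3819 CPM, in DR and control. Such sums give deeper cells more weight. By the median share per cell the order was turned round. It was 0.319% of UMIs in DR and 0.341% in control B-like cells, and 0.349% and 0.355% in ILC1-like cells. By role, NK-like cells of DR and control had 1360 and 1325 CPM of the nucleolar genes, 769.7 and 785.8 CPM of the translation factors, and 506 and 482 CPM of the growth and polyamine genes. The snoRNP genes stood at 399 CPM in DR and 401 CPM in control, those of RNA polymerase I and the small subunit at 217 and 239.9 CPM, and those of large subunit assembly at 189.97 and 193 CPM.

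**Figure D1:**
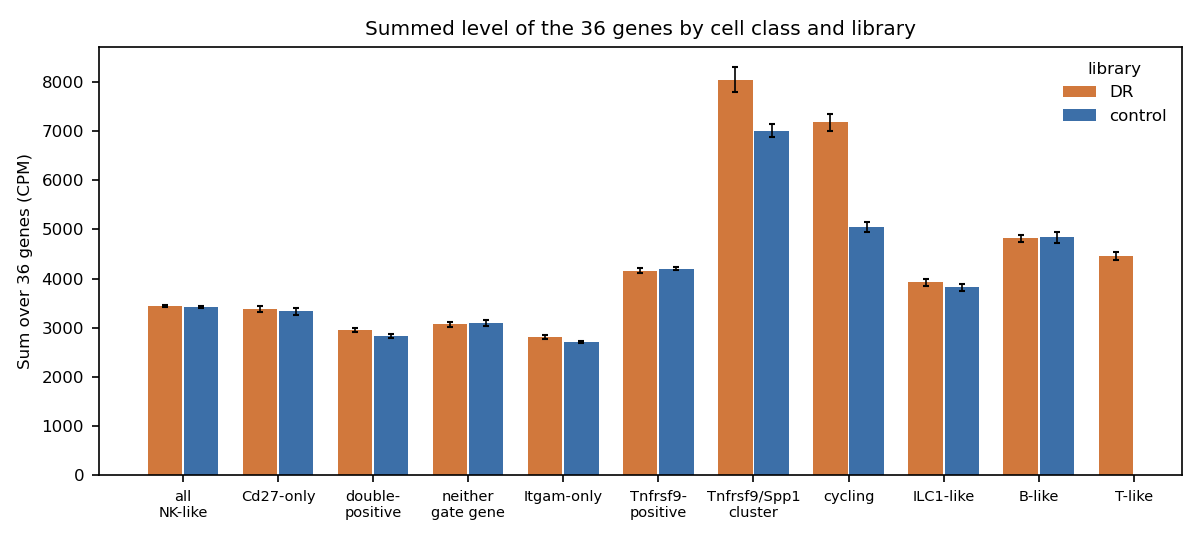
Summed level of the 36 genes in CPM (linear axis from 0) in each cell class, with DR left of control and bars for the 95% counting interval of the sum. The Spp1 and Tnfrsf9 cluster reaches 8048 CPM in DR and 7009 CPM in control, and all NK-like cells lie at 3442 and 3426 CPM.

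The comparison of DR with control asks whether the restricted diet went with a change in these genes in splenic NK cells. Of the 27 members tested, 0 were higher and 1, Ppa1, was lower in DR NK-like cells. Over all 5860 genes 3.02% were higher and 8.14% lower, so the count of members is near that background. The median log2 ratio of the members was -0.02, against -0.06 over all genes. With median-of-ratios scaling 5.32% of all genes were higher and 4.59% lower, and the median of the members turned to 0.05. Without cycling and Tnfrsf9-positive cells the median of the members was 0.06, against -0.06 over all genes. There 1 member was higher and 0 lower, against 3.84% and 8.91% of all genes. The sum over ribosomal protein genes, part of the total that CPM divides by, was 222795 CPM in DR and 198006 CPM in control, and its part in the ratios was not tested. Over all 36 genes, 17 ratios lay above and 19 below equality, and the intervals left out equality for 8 above and 6 below it.

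Of the growth genes, Ppa1 was called and the others were not. Ppa1, the inorganic pyrophosphatase that drives biosynthetic reactions forward, had 20.02 CPM in DR and 25.03 CPM in control (log2 ratio -0.32 [-0.48 to -0.17]). Its call ended under 8 of the alternatives, among them when cells were thinned to an equal depth (-0.24), with median-of-ratios scaling (-0.26) and without cycling and Tnfrsf9-positive cells (-0.15). Odc1, the rate-limiting enzyme of polyamine synthesis, had 49.2 CPM in DR and 39.96 CPM in control (0.30 [0.19 to 0.41]), which stayed just under the ratio limit. Apex1, a base excision repair endonuclease, had 11.05 CPM in DR and 8.83 CPM in control (0.32 [0.09 to 0.55]). The ratios of Odc1 and Apex1 were smaller among the cells gated 1 by 1, at 0.16 for Odc1 and 0.01 for Apex1. Myc had 29.7 CPM in DR and 27.3 CPM in control (0.12 [-0.01 to 0.26]), an interval that includes equality. Srm, the spermidine synthase that acts after Odc1, had 14.0 CPM in DR and 14.8 CPM in control, with no difference beyond counting error. Nme1, a nucleoside diphosphate kinase, had 221 CPM in DR and 204 CPM in control (0.12 [0.07 to 0.17]). Mettl1, the tRNA 7-methylguanosine methyltransferase, had 11.6 CPM in DR and 9.84 CPM in control (0.24 [0.02 to 0.46]). Ppp1r14b, an inhibitor of protein phosphatase 1, had 86.2 CPM in DR and 93.9 CPM in control (-0.12 [-0.20 to -0.05]).

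Among the nucleolar genes, Ncl (nucleolin) had 547 CPM in DR and 555 CPM in control, and the interval of its log2 ratio included 0 (-0.02 [-0.05 to 0.01]). Npm1 (nucleophosmin, a chaperone of ribosome export) had 637 CPM in DR and 582 CPM in control (0.13 [0.10 to 0.16]). Gnl3, the nucleolar GTPase nucleostemin, had 47.8 CPM in DR and 43.0 CPM in control (0.15 [0.05 to 0.26]). Pa2g4, a growth-regulated protein that binds ribosomes, ran the other way with 81.1 CPM in DR and 95.9 CPM in control (-0.24 [-0.32 to -0.16]). Nolc1, a chaperone of snoRNPs, had 47.7 and 48.9 CPM in DR and control. The excess of Npm1 and the deficit of Pa2g4 both left out equality and both lay inside the ratio limits.

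Of the snoRNP genes, Fbl, the methyltransferase of box C/D particles, had 87.6 CPM in DR and 89.1 CPM in control (-0.03). Nop56, a core box C/D protein, had 81.7 CPM in DR and 75.2 CPM in control (0.12 [0.04 to 0.20]), and its partner Nop58 had 69.6 and 67.9 CPM. Dkc1, the pseudouridine synthase of box H/ACA particles, had 52.6 CPM in DR and 55.2 CPM in control (-0.07). Nhp2, another H/ACA protein, had 63.3 CPM in DR and 71.2 CPM in control (-0.17 [-0.26 to -0.08]). None of the snoRNP genes was called.

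Polr1b, the second largest subunit of RNA polymerase I, had 5.77 CPM in DR and 5.21 CPM in control, with a wide interval (0.15 [-0.16 to 0.46]). Ddx21, a nucleolar RNA helicase, had 116 CPM in DR and 138 CPM in control (-0.26 [-0.32 to -0.19]), a gap inside the limit. Bop1, which with Pes1 and Wdr12 forms a complex of large subunit processing, had 22.1 CPM in DR and 22.2 CPM in control (-0.00 [-0.16 to 0.15]). The other 8 genes of large subunit assembly had log2 ratios whose intervals included 0. The translation factors were level: Eif4a1, the initiation helicase, had 308 CPM in DR and 310.4 CPM in control, and Eif5a, the hypusine-bearing elongation factor, 462 and 475 CPM (-0.04 [-0.07 to -0.01]).

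**Figure D2:**
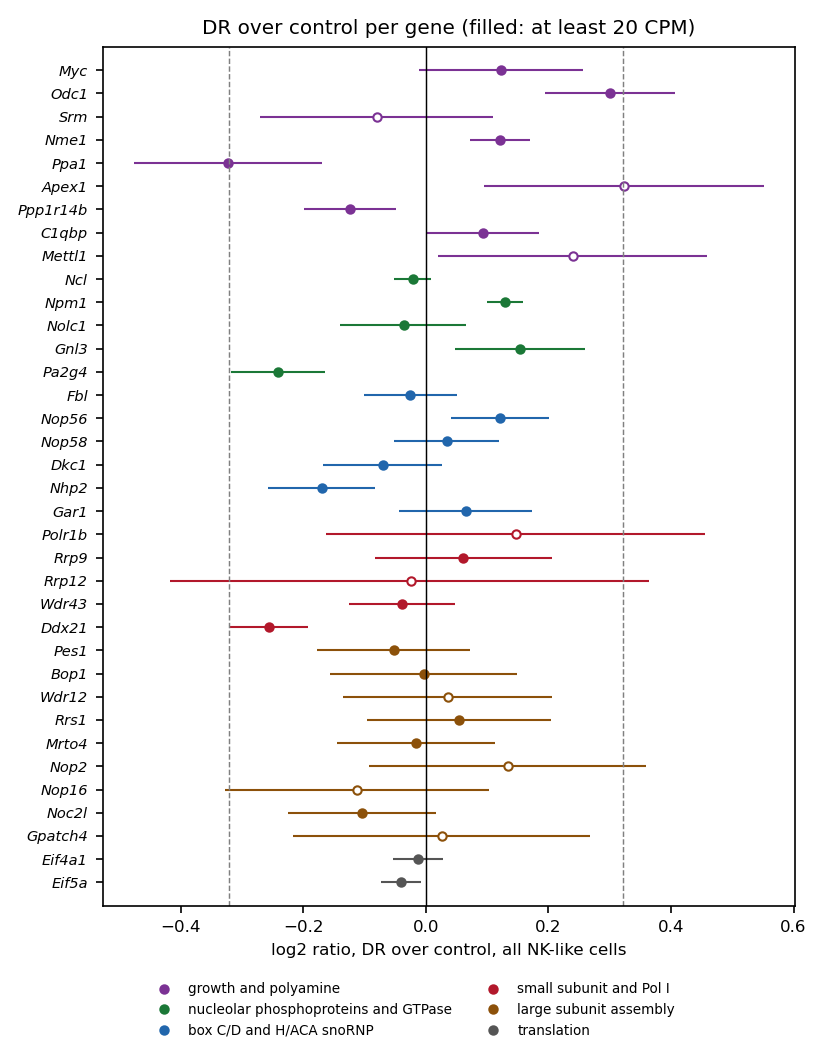
Log2 ratio of DR over control in NK-like cells for each of the 36 genes, coloured by role, with 95% counting intervals. Filled points are the 27 genes at 20 CPM or more and dashed lines mark 25% above and 20% below control. Ppa1 (-0.32) is the filled point beyond the lower line, and Odc1 (0.30) lies just inside the upper one.

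Within NK-like gates few members passed the limits, and Odc1 and Gnl3 were among them. In Itgam-only cells Odc1 was higher in DR, at 41.6 CPM against 31.2 CPM in control (0.42 [0.18 to 0.65]), and it was the 1 member called there, with 0 lower and 5.03% of all genes higher and 9.66% lower. In cells with neither Cd27 nor Itgam UMIs, Odc1 was also higher, at 54.1 CPM in DR against 37.4 CPM in control (0.53 [0.19 to 0.88]). There Nop56 was higher too and Nhp2 lower, against a background of 4.59% higher and 8.75% lower. In Cd27-only cells Odc1 had 48.8 CPM in DR and 39.6 CPM in control, which was not called (0.30 [-0.04 to 0.65]). The 1 member higher there was Gnl3, with 49.5 CPM in DR and 36.7 CPM in control (0.43 [0.09 to 0.79]), with 0 lower and 4.35% of all genes higher and 8.96% lower. In cells with UMIs of both, Gar1 was higher (38.2 CPM in DR, 29.1 CPM in control) and Ddx21 lower (99.7 CPM in DR, 127 CPM in control), with 4.93% and 11.2% of all genes called. In ILC1-like cells the order of Odc1 was turned round: it was lower in DR, at 75.4 CPM against 110 CPM in control (-0.55), with Pa2g4 and Ddx21 also lower, Gar1 higher, and 3.67% of all genes higher and 9.73% lower. In B-like cells 0 members were higher and 3, Ppp1r14b, Nolc1 and Noc2l, were lower, with 3.4% of all genes higher and 8.63% lower.

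At the level of clusters, members differed between DR and control in opposite directions in a pair of NK-like clusters, singled out after their values were seen. In the cluster led by Batf3 and Gpr55 (254 DR and 213 control cells) the sum was 4165 CPM in DR and 4924 CPM in control. There 10 of 27 members were lower and 1 higher in DR, against 10.8% and 3.55% of all genes. Ppa1 had 24.7 CPM in DR and 52.1 CPM in control (-1.08), Mrto4, a large subunit assembly factor, 35.04 and 57.9 CPM (-0.72), and Dkc1 52.5 and 83.5 CPM (-0.67). Myc was the 1 member higher, with 61.3 CPM in DR and 38.1 CPM in control (0.69). In the cluster led by Ccl4 and Nr4a1 (84 DR and 101 control cells) the sum was 5299 CPM in DR and 4270 CPM in control. There 7 members were higher and 0 lower in DR, against 3.77% and 8.33% of all genes. Fbl had 152 CPM in DR and 80.3 CPM in control (0.93), Nme1 341 and 201 CPM (0.76), and Npm1 791 and 611 CPM (0.37).

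Members were also higher in DR in the cluster led by Cxcl10 and Ifit1 (28 DR and 41 control cells), where the sum was 4473 CPM in DR and 3198 CPM in control. There 9 members were higher and 0 lower, against 3.55% and 5% of all genes. In the cluster led by Hist1h1b and Pclaf (59 DR and 112 control cells), 11 were higher and 0 lower, against 6.25% and 21.9% of all genes. B cell markers summed there to 18457 CPM in DR and 429 CPM in control, and their part in the result was not tested. In the low-mitochondrial cluster, led by Gzmc and Gm47283, the sum was lower in DR, at 3655 CPM against 4429 CPM in control. It held 46 DR and 188 control cells, with median mitochondrial shares of 0.294% and 0.233% and median depths of 3122.5 and 3117.5 UMIs. Tnfrsf9, an activation-induced receptor of the TNF receptor superfamily, differed in the same direction as the sum in the Batf3 and Ccl4 clusters. It had 110 CPM in DR and 176 CPM in control in the Batf3 cluster, and 342 CPM in DR and 226 CPM in control in the Ccl4 cluster. Elsewhere it ran against the sum. In the Hist1h1b cluster it had 21.9 CPM in DR and 85.2 CPM in control, with sums of 7141 and 5312 CPM. In the Cxcl10 cluster it had 79.5 CPM in DR and 83.3 CPM in control, and in the Gzmc cluster 159 and 99.5 CPM. Among Tnfrsf9-positive cells the sum was 4594 CPM in DR and 5409 CPM in control in the Batf3 cluster, and 6166 CPM in DR and 4779 CPM in control in the Ccl4 cluster. Among cells of the Batf3 cluster without a Tnfrsf9 UMI, the sum was 3757 CPM in DR and 3682 CPM in control. Among those of the Ccl4 cluster it was 3750 CPM in DR and 3119 CPM in control. The part of Tnfrsf9 in these differences was not tested.

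The stage comparison asks how these genes lie along maturation, in which mouse NK cells are known to pass from Cd27 alone through both markers to Itgam alone. Stages were gated among NK-like cells that were neither cycling nor Tnfrsf9-positive, giving 644 DR and 346 control Cd27-only cells and 1290 DR and 1693 control Itgam-only cells. Of 27 members, 5 were higher in Cd27-only than in Itgam-only cells in both libraries and 0 lower, against 4.18% and 8.46% of all genes. They were Myc, Nme1, Ppp1r14b, Npm1 and Fbl. The median log2 ratio of the members was 0.22, against -0.11 over all genes. These gates rest on single UMIs, and their depths differ. The median was 6426.5 UMIs in DR and 7771 in control Cd27-only cells, and 4918 and 6498 in Itgam-only cells. It was 4544 and 5560 in cells with neither marker. With thinned cells 4 of 26 members were higher and 0 lower, against 2.45% and 4.11% of all genes. With median-of-ratios scaling, which moved the median of all genes to -0.01, 9 members were higher, with 6.66% of all genes higher and 4.45% lower.

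Myc was the 1 member called higher in each of the 3 other gates than in Itgam-only cells. In the DR library it had 35.3 CPM in Cd27-only cells, 30.5 CPM in cells with both markers, 27.8 CPM in cells with neither and 17.8 CPM in Itgam-only cells. In the control library the same order held, with 39.9, 31.4, 29.2 and 17.7 CPM. Its log2 ratio of Cd27-only over Itgam-only cells was 0.99 [0.63 to 1.35] in DR and 1.17 [0.82 to 1.51] in control. Itgam-only cells were lowest in both libraries, and the 3 other gates lay between 27.8 and 39.9 CPM. Cells with both markers did not differ from Cd27-only cells in Myc beyond counting error. That log2 ratio was -0.21 [-0.54 to 0.12] in DR and -0.34 [-0.69 to 0.01] in control. Myc was also the 1 member higher in cells with both markers than in Itgam-only cells, with 0 lower (2.03% of all genes higher and 1.86% lower). It was the 1 member higher in cells with neither marker, with 0 lower (0.631% and 0.529%).

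Srm and Apex1 also stood higher in Cd27-only than in Itgam-only cells, at low levels. Srm had 14.1 CPM in Cd27-only and 6.79 CPM in Itgam-only cells of the DR library (1.06 [0.48 to 1.65]) and 12.6 and 5.95 CPM in control (1.08 [0.45 to 1.69]). Apex1 had 8.66 against 3.92 CPM in DR (1.14 [0.39 to 1.92]) and 6.83 against 3.06 CPM in control (1.16 [0.27 to 2.0]). The larger genes had smaller ratios. Npm1 had 670.3 CPM in Cd27-only and 476 CPM in Itgam-only cells of the DR library (0.49) and 623 and 442 CPM in control (0.50). Nme1 had 219 against 167 CPM in DR (0.39 [0.26 to 0.51]) and 208 against 137 CPM in control (0.61 [0.47 to 0.74]). Fbl had 92.3 against 61.1 CPM in DR (0.60) and 83.1 against 63.9 CPM in control (0.38).

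Other members lay level between the stages or pointed the other way. Ncl had 526 CPM in Cd27-only and 499 CPM in Itgam-only cells of the DR library (0.08 [-0.00 to 0.15]) and 511 and 503 CPM in control (0.03 [-0.06 to 0.11]). Nop56 had 71.4 against 75.6 CPM in DR (-0.08) and 61.1 against 66.6 CPM in control (-0.12). Polr1b had 3.42 against 6.34 CPM in DR (-0.89 [-1.85 to -0.01]) and 3.24 against 4.81 CPM in control (-0.57). Nop56 and Polr1b were the 2 of 36 members below equality in both libraries, whereas 30 were above it in both. The sum over genes of ribosomal proteins differed in the same direction as the sum of the members, with 252029 CPM in Cd27-only and 187298 CPM in Itgam-only cells of the DR library and 237845 and 168856 CPM in control. Its part in the ratios, which are shares of all UMIs, was not tested.

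**Figure D3:**
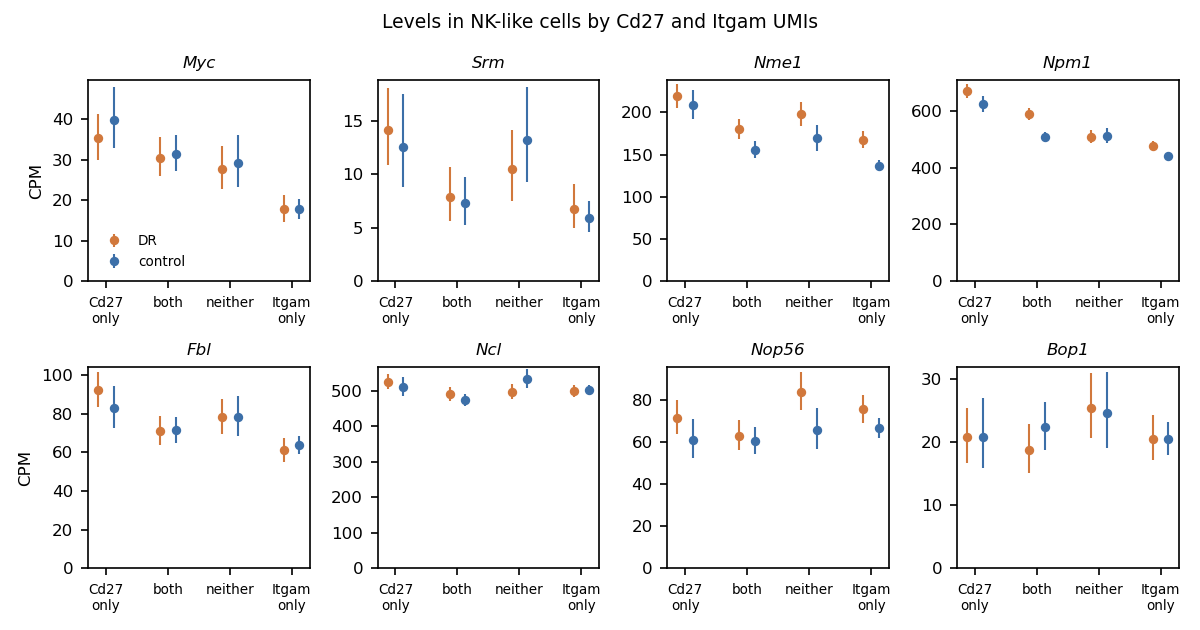
Level in CPM (linear axes from 0) of Myc, Srm, Nme1, Npm1, Fbl, Ncl, Nop56 and Bop1 in the 4 gates by Cd27 and Itgam UMIs, DR beside control, with 95% counting intervals. Myc is lowest in Itgam-only cells (17.8 CPM in DR and 17.7 CPM in control), whereas Ncl is nearly level.

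Most of the 27 tested genes were higher in Tnfrsf9-positive cells, which are NK-like cells with at least 1 Tnfrsf9 UMI outside the cycling gate. They numbered 908 in the DR and 1331 in the control library. Their sum of the 36 genes was 4161 CPM (4113 to 4209) against 3018 CPM in Tnfrsf9-negative cells of the DR library, and 4202 CPM (4166 to 4239) against 2862 CPM in the control library. They include 48 DR and 143 control cells of the Spp1 and Tnfrsf9 cluster, at 8478 and 7184 CPM. Within clusters the gap varied. In the Batf3 cluster it was 4594 against 3757 CPM in DR and 5409 against 3682 CPM in control. In the cluster led by Gm10522 and Ly6c2 it was 2872 against 2709 CPM in DR and 2774 against 2626 CPM in control. Of 27 members 19 were higher in both libraries and 0 lower, against 2.58% and 2.42% of all genes. The members were chosen with earlier results of these data known, so this excess is a description and no test. The median log2 ratio of the members was 0.45, against -0.05 over all genes. All 36 ratios lay above equality in both libraries, 31 of them with intervals above it in both. With median-of-ratios scaling 3.81% of all genes were higher and 1.62% lower, and the members' median was 0.51.

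A gate on 1 UMI takes deeper cells, and the median depth was 6975.5 UMIs in DR and 8409 UMIs in control Tnfrsf9-positive cells. When every cell was thinned to 3000 UMIs before gating, the sums were 4194 against 3030 CPM in the DR library and 4315 against 2911 CPM in the control library. With at least 2 Tnfrsf9 UMIs asked for, 309 DR and 585 control cells had sums of 5228 and 5198 CPM. All 27 tested members were then higher in both libraries and 0 lower, against 5.92% and 8.7% of all genes. Tnfrsf9 itself stood at 2.91 CPM in DR and 2.1 CPM in control B-like cells, against 66.9 and 91.1 CPM in NK-like cells. Markers of B cells summed to 189 CPM in DR and 148 CPM in control Tnfrsf9-positive cells, against 251 and 132 CPM in all NK-like cells outside the cycling gate.

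The growth and polyamine genes had the widest ratios, with a group median of 0.74 and 5 of 6 tested members higher. Mettl1 had 22.7 CPM in Tnfrsf9-positive and 6.90 CPM in Tnfrsf9-negative cells of the DR library (1.72 [1.38 to 2.06]) and 17.6 and 4.90 CPM in control (1.85 [1.52 to 2.19]). Apex1 had 15.7 against 6.15 CPM in DR (1.36 [0.97 to 1.74]) and 14.7 against 4.42 CPM in control (1.73 [1.37 to 2.1]). Srm had 21.4 against 9.39 CPM in DR (1.18 [0.86 to 1.5]) and 24.2 against 7.98 CPM in control (1.60 [1.33 to 1.87]). These 3 genes lie below the level for calls, and none of their intervals reaches equality in either library. Ppa1 had 29.3 against 14.2 CPM in DR (1.05 [0.78 to 1.31]) and 39.1 against 15.8 CPM in control (1.31 [1.11 to 1.51]). Odc1 had 57.6 against 44.1 CPM in DR (0.38) and 47.3 against 32.9 CPM in control (0.52). Nme1 had 289 against 188 CPM in DR (0.62) and 271 against 154 CPM in control (0.81).

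Myc was the tested gene of this group that was not called in both libraries. It had 38.7 CPM in Tnfrsf9-positive and 26.8 CPM in Tnfrsf9-negative cells of the DR library (0.53 [0.31 to 0.74]) and 30.8 and 25.4 CPM in control (0.28 [0.09 to 0.47]). Between the libraries, Tnfrsf9-positive cells had more Myc in DR (0.33 [0.10 to 0.56]) and less Ppa1 (-0.42). These were the 1 member higher and the 1 member lower in that comparison, in which 3.45% of all genes were higher and 10.3% lower.

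Of the nucleolar genes 3 of 5 were higher. Npm1 had 734 CPM in Tnfrsf9-positive and 554 CPM in Tnfrsf9-negative cells of the DR library (0.41) and 697 and 489.6 CPM in control (0.51). Gnl3 had 65.2 against 41.1 CPM in DR (0.67) and 56.9 against 35.1 CPM in control (0.70). Nolc1 had 57.6 against 42.0 CPM in DR (0.46) and 57.8 against 42.7 CPM in control (0.44). Ncl was above equality in both libraries and inside the limit, with 617 against 502 CPM in DR (0.30 [0.25 to 0.35]) and 621 against 499.7 CPM in control (0.31 [0.27 to 0.36]).

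Of the snoRNP genes 5 of 6 were higher, both box C/D and box H/ACA proteins. Fbl had 106 CPM in Tnfrsf9-positive and 73.9 CPM in Tnfrsf9-negative cells of the DR library (0.52) and 117 and 70.0 CPM in control (0.75). Nop58 had 86.7 against 61.4 CPM in DR (0.50) and 80.6 against 56.4 CPM in control (0.52). Nop56 had 91.9 against 73.1 CPM in DR (0.33) and 83.2 against 64.2 CPM in control (0.37). Dkc1 was the exception, with 57.6 against 48.9 CPM in DR (0.23) and a call in the control library alone (64.9 against 46.9 CPM, 0.47).

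All 3 tested genes of the small subunit group were higher. Ddx21 had 141 CPM in Tnfrsf9-positive and 108 CPM in Tnfrsf9-negative cells of the DR library (0.39) and 167 and 124 CPM in control (0.43). Polr1b, below the level for calls, had 6.20 against 5.60 CPM in DR (0.15 [-0.39 to 0.67]) and 6.90 against 4.55 CPM in control (0.60). Large subunit assembly had 1 of 5 tested genes higher, Mrto4, with 38.4 against 24.9 CPM in DR (0.62) and 43.9 against 23.1 CPM in control (0.92). Bop1 had 23.7 against 21.1 CPM in DR (0.17 [-0.10 to 0.43]) and 25.3 against 21.5 CPM in control (0.23 [0.02 to 0.44]). Gpatch4, a G-patch protein of the nucleolus and below the level for calls, had 15.1 against 5.95 CPM in DR (1.35 [0.96 to 1.74]) and 15.3 against 5.16 CPM in control (1.57 [1.23 to 1.91]). Both translation factors were higher: Eif4a1 had 377 against 269 CPM in DR (0.49) and 373 against 258 CPM in control (0.53), and Eif5a 582 against 401 CPM in DR (0.54) and 599.8 against 393 CPM in control (0.61).

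**Figure D4:**
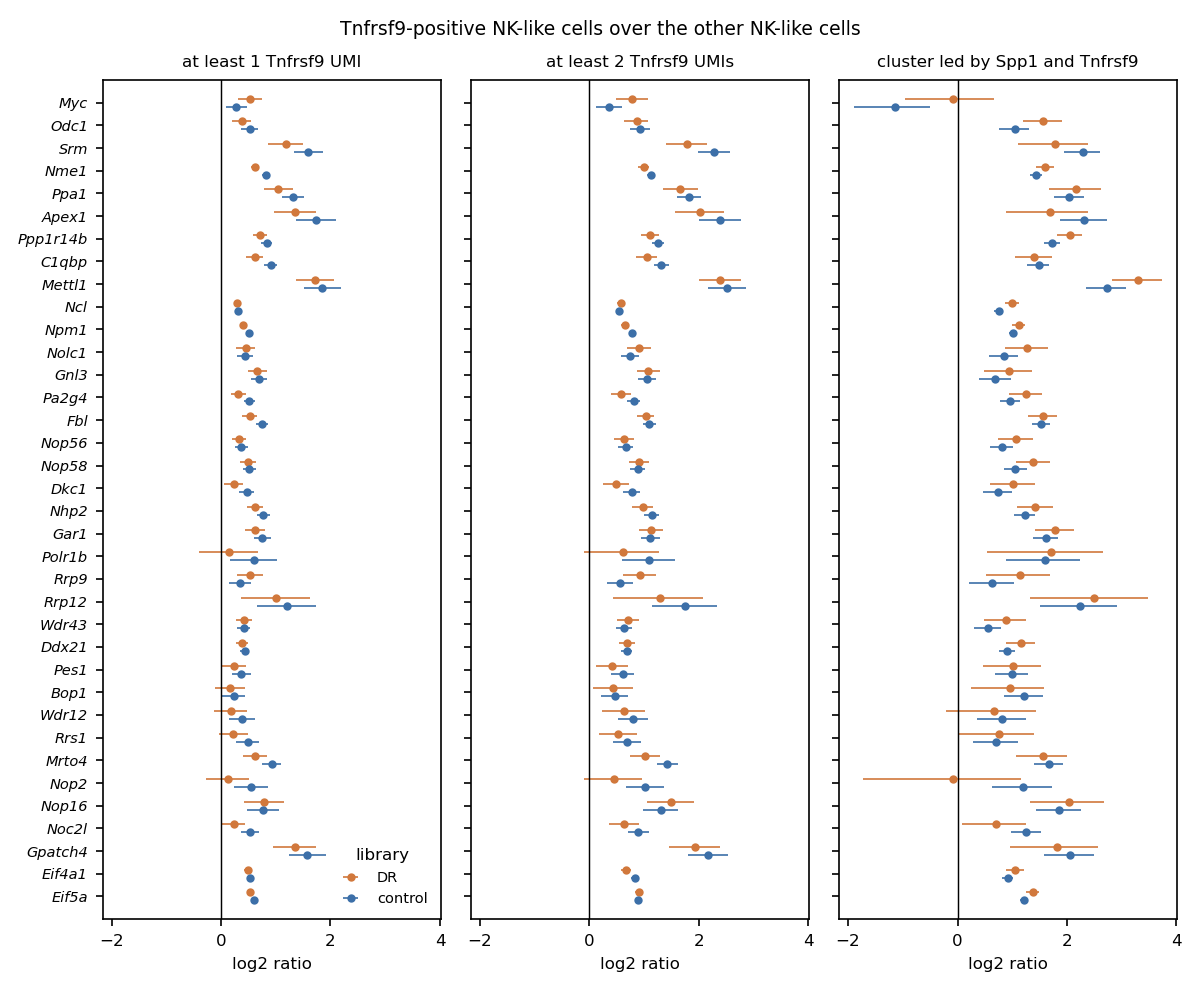
Log2 ratio of each of the 36 genes over other NK-like cells in cells with at least 1 Tnfrsf9 UMI, in cells with at least 2, and in the cluster led by Spp1 and Tnfrsf9, DR and control in separate colours, with 95% counting intervals. Mettl1 lies at 1.72 in DR and 1.85 in control in the first panel, against Tnfrsf9-negative cells, and at 3.29 and 2.72 in the last, against all NK-like cells outside the cluster, where Myc lies at -0.08 and -1.15.

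In the cluster led by Spp1 and Tnfrsf9 nearly every member stood above its level in the other NK-like cells. Tnfrsf9 stood at 675 CPM in DR and 616 CPM in control there, and 92.3% of its DR and 94.7% of its control cells held a Tnfrsf9 UMI. The 36 genes were left out of the clustering, yet Mettl1, Ppa1, Ppp1r14b and Srm were among its 10 leading genes by ratio. Markers of B cells summed to 169 CPM in DR and 78.9 CPM in control there, and NK markers to 18663 and 22039 CPM. Since other genes that vary with them did shape the clusters, the values are given as a description. The members were also chosen with earlier results of these data known. Of 27 tested members 26 were higher in both libraries and 0 lower, against 8.38% and 8.21% of all genes, with a median log2 ratio of 1.06 against -0.10 over all genes. By role, the medians were 1.48 for growth and polyamine genes, 1.27 for snoRNP genes, 1.14 for translation factors, 1.06 for nucleolar genes, 1.01 for large subunit assembly and 0.88 for the small subunit group.

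Mettl1 had 98.4 CPM inside and 10.0 CPM outside the cluster in DR (3.29 [2.82 to 3.73]) and 53.1 and 8.04 CPM in control (2.72 [2.35 to 3.08]). Ppa1 had 84.3 against 18.8 CPM in DR (2.16) and 91.5 against 22.3 CPM in control (2.04). Srm had 46.2 against 13.4 CPM in DR (1.78) and 62.4 against 12.8 CPM in control (2.28). Odc1 was also high, so that both enzymes that lead from ornithine to spermidine stood well above other NK-like cells. It had 141 against 47.6 CPM in DR (1.56) and 78.9 against 38.3 CPM in control (1.04). Among abundant genes, Npm1 had 1351 against 624 CPM in DR (1.11) and 1128 against 559 CPM in control (1.01). Ncl had 1070.0 against 537 CPM in DR (0.99) and 910.2 against 539.96 CPM in control (0.75). Eif5a, whose hypusine is made from spermidine, had 1166 against 449 CPM in DR (1.38) and 1053 against 451 CPM in control (1.22).

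The snoRNP genes were called as well, 6 of 6. Polr1b, below the level for calls, had 18.1 CPM inside and 5.55 CPM outside in DR (1.70) and 14.6 and 4.82 CPM in control (1.60). Rrp12, a factor of small subunit export, had 18.1 against 3.21 CPM in DR (2.49) and 14.6 against 3.08 CPM in control (2.25). Fbl had 249 against 84.7 CPM in DR (1.56) and 239 against 82.9 CPM in control (1.53). Gar1, a box H/ACA protein, had 145 against 42.2 CPM in DR (1.78) and 119 against 38.9 CPM in control (1.61). Bop1, which barely differed by the 1-UMI gate, had 42.2 against 21.8 CPM in DR (0.95) and 49.1 against 21.1 CPM in control (1.22).

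Myc did not share the pattern. It had 28.1 CPM inside and 29.7 CPM outside the cluster in DR (-0.08 [-0.96 to 0.67]) and 12.6 and 27.9 CPM in control (-1.15 [-1.88 to -0.49]), where it was lower. Nop2, an rRNA methyltransferase, was the other member not above equality in both libraries, with 10.0 against 10.7 CPM in DR (-0.09 [-1.72 to 1.15]) and 21.2 against 9.23 CPM in control (1.20). The highest Myc level of any NK-like cluster was in the one led by Ccl4 and Nr4a1, with 113 CPM in DR and 125 CPM in control. Among DR cells it was lowest in the cluster led by Cx3cr1 and Gpx8, at 9.54 CPM in DR and 13.0 CPM in control, and among control cells in the Spp1 cluster. Between DR and control within the Spp1 cluster, Myc, Odc1, Nop56 and Nop58 were higher in DR and 0 members were lower, against 3.07% and 6.38% of all genes. Myc had 28.1 CPM in DR and 12.6 CPM in control (1.16 [0.05 to 2.23]) and Odc1 141 and 78.9 CPM (0.83).

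Cycling NK-like cells were gated by UMIs of at least 3 of 16 cell cycle genes, and numbered 56 in the DR and 107 in the control library, with median depths of 15880.5 and 19479 UMIs. In the DR library this gate held transcripts of another cell type. B cell markers summed to 18910.0 CPM in DR and 478 CPM in control cycling cells, plasma cell markers to 2273 and 70.0 CPM and NK markers to 7144 and 14895 CPM. Igkc, an immunoglobulin light chain gene, alone had 11768 CPM in DR and 31.6 CPM in control. Values are therefore given with cells gated 1 by 1. The gate asks for an NK receptor UMI and no UMI of its B, T or myeloid genes. It kept 19 DR and 80 control cycling cells. B cell markers, of which the gate uses a part, still summed there to 125 CPM in DR and 109 CPM in control. Before this gate 17 of 27 members were higher in cycling cells and 0 lower, against 12% and 26.9% of all genes, and the sum was 7184 CPM in DR and 5049 CPM in control. After it 10 members were higher and 0 lower, against 7.8% and 14.6% of all genes. The sum was then 4867 CPM against 3298 CPM in other gated NK-like cells of the DR library, and 5239 against 3304 CPM in control.

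Among the gated cells Pa2g4 and Nop56 were the leading called members. Pa2g4 had 192 CPM in cycling and 74.4 CPM in other gated cells of the DR library (1.37 [0.96 to 1.75]) and 223 and 88.6 CPM in control (1.33 [1.17 to 1.5]). Nop56 had 189 against 76.9 CPM in DR (1.29) and 166 against 69.9 CPM in control (1.245). Npm1 had 1078 against 595 CPM in DR (0.86) and 969 against 562 CPM in control (0.79). The other called members were Nme1, Ppa1, Fbl, Nhp2, Gar1, Eif4a1 and Eif5a. None of the tested genes of the small subunit group or of large subunit assembly was called, although these were 3 and 5 genes. Ddx21 had 87.6 against 115 CPM in DR (-0.39 [-1.01 to 0.17]) and 126 against 140.0 CPM in control (-0.15 [-0.37 to 0.06]). Bop1 had 26.9 against 22.0 CPM in DR (0.29) and was lower in control, at 12.1 against 22.7 CPM (-0.91 [-1.67 to -0.24]). Myc had 20.2 against 30.2 CPM in DR (-0.58 [-2.03 to 0.55]) and 28.9 against 26.6 CPM in control (0.12), intervals that include equality.

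Ungated, the largest cycling ratios by the mean of both libraries were those of Apex1, Srm and Ppa1, and they were wider in DR, where B cell transcripts were high. The part of those transcripts in the ratios was not tested. Apex1 had 81.3 CPM in cycling and 8.61 CPM in other NK-like cells of the DR library (3.24) and 22.9 and 8.02 CPM in control (1.51). Srm had 57.8 against 12.5 CPM in DR (2.21) and 34.5 against 13.7 CPM in control (1.34). Between the libraries, 15 members were higher in ungated DR cycling cells and 1 lower, with 6.37% and 23.6% of all genes called. In the gated cells 0 were higher and 2, Ppp1r14b (70.7 CPM in DR, 136 CPM in control) and Ncl (569 and 771 CPM), were lower, with 2.65% and 8.45% of all genes called. With median-of-ratios scaling the ungated cycling contrast had 19.5% of all genes higher and 14.1% lower, the median of all genes moved to -0.02 from -0.26, and that of the members was 1.07.

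ILC1-like, B-like and T-like cells were set against NK-like cells of the same library. In ILC1-like cells 2 members were higher in both libraries and 0 lower, against 8.19% and 8.81% of all genes. Odc1 had 75.4 CPM in ILC1-like and 49.2 CPM in NK-like cells of the DR library (0.62) and 110 and 39.96 CPM in control (1.47). Nolc1 had 63.5 against 47.7 CPM in DR (0.41) and 65.8 against 48.9 CPM in control (0.43). Myc had 39.7 against 29.7 CPM in DR (0.42) and 30.9 against 27.3 CPM in control (0.18). The members' median ratio was 0.19, against 0.00 over all genes. Of all 36 members 30 lay above equality in both libraries and 2 below it. The intervals left out equality in both libraries for 9 above and 0 below it. Most tested members were not called.

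B-like cells had 16 members higher in both libraries and 0 lower, against 9.04% and 41.8% of all genes. The members' median was 0.59, against -0.36 over all genes. With median-of-ratios scaling 25 members were higher, with 20.2% of all genes higher and 21.2% lower and the median of all genes at -0.00. Apex1 had 45.6 CPM in B-like and 11.05 CPM in NK-like cells of the DR library (2.05) and 51.1 and 8.83 CPM in control (2.53). Gpatch4 had 40.04 against 8.97 CPM in DR (2.16) and 35.7 against 8.81 CPM in control (2.02). Srm had 53.6 against 14.0 CPM in DR (1.94) and 42.7 against 14.8 CPM in control (1.53). These low genes of NK-like cells were thus well counted in B-like cells. Myc had 57.3 against 29.7 CPM in DR (0.95) and 65.8 against 27.3 CPM in control (1.27). Npm1 had 1055 against 637 CPM in DR (0.73) and 976 against 582 CPM in control (0.74). Eif5a was level (-0.01 in DR and 0.01 in control), as was Eif4a1 (0.07 and 0.03), and Bop1 had 16.5 against 22.1 CPM in DR (-0.42) and 16.1 against 22.2 CPM in control (-0.46).

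T-like cells could be set against NK-like cells in the DR library alone. There 16 members were higher and 1 lower, against 8.84% and 48% of all genes. With median-of-ratios scaling 23 members were higher and 0 lower, with 20.8% of all genes higher and 22.0% lower. Gpatch4 had 40.7 CPM in T-like and 8.97 CPM in NK-like cells (2.18), Npm1 1097 and 637 CPM (0.79) and Myc 44.9 and 29.7 CPM (0.59). Odc1 was the 1 lower member, with 38.5 CPM in T-like and 49.2 CPM in NK-like cells (-0.35 [-0.66 to -0.06]). That direction was lost, at 0.00076, with a total that held neither ribosomal protein nor mitochondrial genes.

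**Figure D5:**
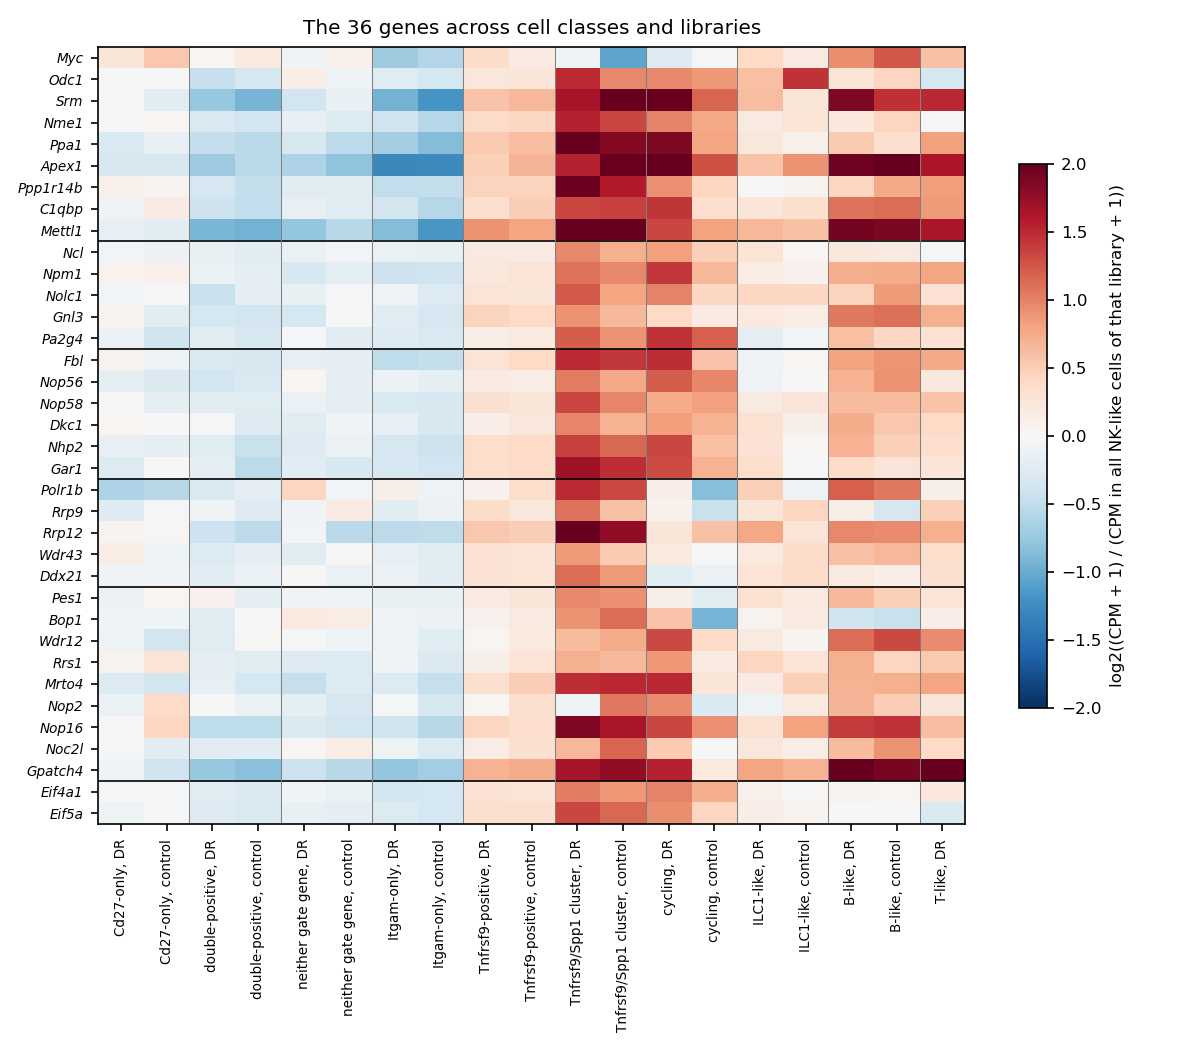
Level of each of the 36 genes, grouped by role, in each class and library as log2 of (CPM + 1) over (CPM + 1) in all NK-like cells of that library, on a colour scale from -2 to 2. Most rows are high in the Spp1 and Tnfrsf9 cluster and low in Itgam-only cells, whereas the row of Myc is not raised in that cluster.

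Across the 13 NK-like clusters the members tracked their summed level to different degrees. Pearson's r of a gene's log level with the log sum over the 13 clusters, a description in which clusters share a library, its depth and the gene's own part in the sum, was highest by the mean of both libraries for Eif5a (0.97 in DR and 0.96 in control), Gar1 (0.96 and 0.97) and Nme1 (0.96 and 0.95). It was 0.42 in DR and -0.10 in control for Myc, 0.22 and 0.82 for Nop2, 0.73 and 0.36 for Bop1, and 0.48 and 0.69 for Ddx21. Summed levels ran from 2690.2 to 8048 CPM over clusters of the DR library and from 2645 to 7009 CPM over those of the control library.

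Other genes of the pathway were taken from fixed lists that hold none of the 36. In Tnfrsf9-positive cells 0 of 10 tested genes of RNA polymerase I and its factors were higher, 2 of 26 of the small subunit processome, 2 of 31 of large subunit assembly, 1 of 9 of further snoRNP proteins and 0 of 11 of the RNA exosome. No gene of these lists was lower there. Over all genes 2.58% were higher and 2.42% lower, so most of these counts lie near the background. Nob1, the nuclease that finishes the small subunit rRNA, had 28.1 CPM in Tnfrsf9-positive and 20.2 CPM in Tnfrsf9-negative cells of the DR library and 23.4 and 18.4 CPM in control. Ppan, a large subunit factor, had 35.1 against 22.4 CPM in DR and 28.2 against 19.9 CPM in control. Nop10, a box H/ACA protein, had 239.5 against 191 CPM in DR and 241 against 193 CPM in control. Outside ribosome assembly, 4 of 12 tested genes of purine and pyrimidine synthesis were higher, 3 of 16 of the chaperonin and prefoldin list and 1 of 34 translation factors. Ppat, the first committed enzyme of purine synthesis, had 50.2 against 29.2 CPM in DR and 61.7 against 37.1 CPM in control. Hspe1, a mitochondrial chaperonin subunit, had 231 against 170.0 CPM in DR and 271 against 159 CPM in control.

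In the Spp1 and Tnfrsf9 cluster, 16 of 31 large subunit genes were higher, 5 of 26 small subunit genes, 5 of 9 snoRNP genes, 1 of 10 of RNA polymerase I, 1 of 11 of the exosome, 11 of 34 translation factors, 2 of 7 of polyamine and hypusine synthesis, 4 of 12 of nucleotide synthesis and 12 of 16 of the chaperonin and prefoldin list. Over all genes 8.38% were higher and 8.21% lower there, and the counts for RNA polymerase I and the exosome lie near that share. Of the 8 tested genes of the MYC network 0 were higher and 1 was lower, Mxd1, a partner of MAX that acts against MYC. It had 44.2 CPM inside and 102 CPM outside the cluster in DR and 73.0 and 94.3 CPM in control. Between DR and control in all NK-like cells, few of these list genes were called, with 3.02% of all genes higher and 8.14% lower. Lower in DR were Ubtf, the RNA polymerase I factor UBF (108 CPM in DR and 149 CPM in control), and the small subunit factors Bms1 (50.1 and 66.6 CPM) and Wdr3 (23.3 and 30.2 CPM). Eif4g2 (280.0 and 361 CPM), Mxd4 (175 and 234 CPM) and Ppat (35.2 and 47.2 CPM) were lower as well. Impdh1, an enzyme of guanine nucleotide synthesis, was higher, at 38.6 CPM in DR and 29.3 CPM in control. The lists of large subunit assembly, snoRNP proteins, the exosome, polyamine synthesis, and chaperonin and prefoldin had 0 genes called in either direction.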

How the data were processed

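UMI counts per gene and cell barcode were deposited as whole numbers, not normalized; per the submitters' processing notes they were made with Cell Ranger 2.1.1 on mm10, whereas the file headers name Cell Ranger 5.0.1. Barcodes under 500 genes or over 10% mitochondrial UMIs were removed (167 DR and 215 control). Scrublet's automatic threshold marked 5 and 1 cells, so doublets were called at 0.8% per 1000 cells, ties included (362 DR and 243 control cells removed). Cells were clustered with Scanpy 1.11.5 and leidenalg 0.10.2 (2000 variable genes without the members and pathway lists, 30 components, 15 neighbours, resolution 1.0, chosen after seeing that 0.6 joined cycling NK cells with B cell transcripts), and 13 of 20 clusters were NK-like by fixed markers. At 0.6 the cluster of cycling cells held markers of several lineages and was left unnamed. At 1.0 the cycling cluster was named NK-like, and B cell transcripts stayed high in its DR cells. The 4 unnamed clusters of resolution 1.0 were left out. No barcode held under 501 UMIs, so free RNA was not estimated. Summed UMIs became CPM with exact Poisson intervals, and ratios have exact conditional binomial intervals (SciPy 1.17.1). These cover counting error only. Scripts were tested on simulated counts. The members and lists were chosen with earlier results of these data known. All members may be named, with values for a fixed core, those with the largest ratios in each contrast and at most 3 genes a list; others are named where they were called.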

Additional observations from a re-analysis of the deposited data

How the results depend on the processing

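No paired analysis was possible because each group is 1 library and no test was made. Alternatives that leave out the low-mitochondrial cluster, use coarser clusters, or gate cells 1 by 1 outside the DR and control comparison were chosen after seeing the data. Of DR over control in NK-like cells, 1 member was higher with median-of-ratios scaling, with ribosomal and mitochondrial genes left out of the total, with a minimum of 5 CPM, with a mean over cells, with thinned cells, and without cycling or without cycling and Tnfrsf9-positive cells. It had 0 lower with the first 2 of these scalings, with doublets kept, a mean over cells, thinned cells, a limit of 1.5, without the low-mitochondrial cluster, and without cycling and Tnfrsf9-positive cells. Over all genes, 3.12% to 5.80% were higher in the former settings and 1.06% to 8.91% were lower in the latter. A minimum of 5 CPM tested 35 members, and a mean over cells or thinned cells tested 26. Of Tnfrsf9-positive cells 8 members were higher at a limit of 1.5, against 0.648% of all genes higher and 0.256% lower. The pairs of percentages that follow are likewise the shares of all genes higher and lower. Of cycling cells 8 were higher when thinned and 10 when gated 1 by 1. Of Cd27-only over Itgam-only cells, 9 were higher with median-of-ratios scaling (6.66% and 4.45%) and 10 with ribosomal and mitochondrial genes left out (7.58% and 3.92%). At 5 CPM 8 were higher (4.22% and 6.93%), and 1 at a limit of 1.5 (1.59% and 2.18%). With Tnfrsf9-positive and cycling cells kept in, 13 were higher (6.08% and 12.7%). Of ILC1-like cells 5 were higher at 5 CPM (8.99% and 7.79%), 6 by a mean over cells (9.02% and 10.2%) and 1 at a limit of 1.5 (3.38% and 4.90%). Of B-like cells 25 were higher with median-of-ratios scaling (20.2% and 21.2%), 9 when thinned (7.02% and 27.5%) and 10 at a limit of 1.5 (5.09% and 27.3%). By a mean over cells 1 was lower (10.1% and 42.9%). Of T-like cells 25 were higher with ribosomal and mitochondrial genes left out (22.5% and 20.8%) and 8 at a limit of 1.5 (4.78% and 27.8%). Under both scalings and at that limit 0 were lower, with 20.8% and 22.0% for median-of-ratios scaling. Odc1 in T-like cells turned to a log2 ratio of 0.00076 with those genes left out. The other 125 of these counts stayed within 1.5 times the reported ones. The causes were not tested. Depth limits the 9 members below 20 CPM and the gated DR cycling cells.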
